A study of Drosophila melanogaster with 3 samples.

Results

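Elba2 peaks whose summit lay just inside a gene, downstream of the start of transcription, were described here in early Drosophila embryos. Members were selected on position and peak strength: peaks of the authors' optimal set, read from the dm6 assembly, with the summit within 500 bp of a transcription start site (TSS) of exactly 1 protein-coding gene and at least 1 bp downstream of that gene's nearest TSS in its direction of transcription. This gave 421 members, 12.9% of the optimal peaks, at 396 genes. Of the 13968 protein-coding genes, 2.84% carried such a peak, a share that the rule itself fixes. The other optimal peaks were 684 at single-gene promoters with the summit at or upstream of the TSS, 822 within 500 bp of the TSSs of 2 or more coding genes, and 1349 farther than 500 bp from any coding TSS.

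The chromatin came from whole embryos of both sexes, 0 to 4 h old, of a transgenic fly line (strain CG9883-GFP) that stably carries Elba2 with GFP at its C terminus. An anti-GFP antibody was used for the immunoprecipitation, and chromatin was sonicated to 200 to 800 bp. There were 3 biological replicates of this single group and no second condition. The promoter of the transgene, the state of the native gene and the read depth were not stated, and input chromatin was not analysed here. The 95% interval of a share is the exact Clopper-Pearson interval, which covers counting error over peaks only, and the spread between the 3 replicates is given beside it for the main results.

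Elba2 is a DNA-binding protein of the BEN-domain family. Together with its partner Elba1 and the adaptor Elba3 it forms the ELBA complex, known for binding the Fab-7 boundary of the bithorax complex in early embryos, where the complex acts as an insulator factor. ELBA recognises an asymmetric site, CCAATAAG, and the related BEN protein Insensitive recognises a palindrome, CCAATTGG. Housekeeping promoters of flies often carry the M1BP word GGTCACAC, which lies close to the TSS and is bound by the zinc-finger protein M1BP, or the DRE word TATCGATA, the site of the DREF factor. A word means here an exact match to these letters on either strand, so that a match is a description of the sequence and not a proof of binding.

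Sites under some of the strongest downstream peaks are printed because the results turn on these short words and on the bases beside them. Each line gives 30 bases of the Release 6 genome, 5′ to 3′ in the direction of the gene, with the word in capitals. The first set holds the palindrome, in the 5′ UTRs of Pkc98E, a protein kinase C, and spg (sponge), a DOCK-family exchange factor, and at r-l, which encodes UMP synthase. Their positions are chr3R:29040028-29040057 on the plus strand, chr3R:28845455-28845484 on the plus strand and chr3R:21073275-21073304 on the minus strand.
Pkc98E palindrome: gtcaggtgtttCCAATTGGagtgggcgtga
spg palindrome: agtgtagaaatCCAATTGGaagttcggctg
r-l palindrome: agcgtagactcCCAATTGGacggttcttat
At Pkc98E and spg the palindrome follows a T and precedes an A, and at r-l it follows a C and precedes an A. Pkc98E and r-l also carried the ELBA site close by, at chr3R:29040003-29040032 and chr3R:21073261-21073290. The ELBA site also lay under the peaks of P5CDh1, an enzyme of proline breakdown, at chr3L:21841090-21841119 on the minus strand and of kst (karst), the beta-heavy spectrin, at chr3L:3336977-3337006 on the plus strand.
Pkc98E ELBA site: aattgagcgcaCTTATTGGcgtttcgtcag
r-l ELBA site: attggacggttCTTATTGGagcctagctag
P5CDh1 ELBA site: cgtaattggggCCAATAAGaaaagcaaaaa
kst ELBA site: caacaagcgggCCAATAAGtaaaacgtaat

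Another word of the same family, CCAATAGG, was picked from an earlier scan of these data, so its presence here is no independent result. It lay under the peaks of Socs16D, of the suppressor of cytokine signalling family (chrX:17827408-17827437), Meltrin, an ADAM metalloprotease (chr3R:14697018-14697047), and CG14229 (chrX:19694979-19695008), all on the minus strand.
Socs16D CCAATAGG: gcgcagagcagCCAATAGGaagcagatcgg
Meltrin CCAATAGG: attagaaaattCCAATAGGaataagaagag
CG14229 CCAATAGG: aaaacaattgaCCAATAGGaaccgaaacca
The housekeeping words are shown from strong members that carry them. These were crok, a Ly6-family protein of septate junctions (chr2L:12172987-12173016, plus strand), and CG12024 (chr3L:1857178-1857207, plus strand) for the M1BP word. For the DRE word they were CG9175 (chr2L:6098947-6098976, minus strand) and GstZ1, a glutathione transferase (chr3R:9456574-9456603, minus strand).
crok M1BP word: gctgctcacacGGTCACACtgctatttaca
CG12024 M1BP word: acattcgctctGGTCACACtgctccgtcaa
CG9175 DRE: gcctatcgatgTATCGATAcctcgccctgc
GstZ1 DRE: tgtagggaaccTATCGATAgttcggcacag
The last set shows the CA repeat, CACACACA, which is read as TGTGTGTG on the opposite strand. It is shown at spg (chr3R:28845505-28845534, plus strand), Mhcl, a myosin heavy chain-like gene (chr3R:16098505-16098534, minus strand), and Nrt (Neurotactin), a cell adhesion protein (chr3L:16766139-16766168, plus strand). The TGTG form was the one on the coding strand at spg and Mhcl.
spg CA repeat: attttcttgttTGTGTGTGcgcgggtccgt
Mhcl CA repeat: ctcccaatgttTGTGTGTGttatcaaaaaa
Nrt CA repeat: catcgcacacaCACACACActctcgccgca
Sar1, the small GTPase of COPII vesicles, was chosen after its values were seen because its ELBA site and M1BP word share bases at chr3R:22356676-22356705 and chr3R:22356682-22356711, on the plus strand and astride the summit.
Sar1 ELBA site: cacagctttcgCTTATTGGtcacactgggg
Sar1 M1BP word: tttcgcttattGGTCACACtggggcttatg

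The members crowded towards the start of the gene. The quartiles of the distance from TSS to summit were 46, 124 and 274 bp, and 115 members (27.3%) had the summit within 50 bp of the TSS. Between 1 and 100 bp lay 187 members (44.4%), between 101 and 250 bp 118 (28%), and between 251 and 500 bp 116 (27.6%). Upstream peaks had quartiles of -241, -122 and -53.8 bp. The pooled list also holds regions that did not enter the optimal set. Of these, 23209 lay over 1000 bp from every optimal summit and are called weak regions, and 2076 of them met the same position rule. Their summits lay farther in, with quartiles of 74, 189 and 331 bp. Measured from the start codon of the same transcripts instead, 328 member summits (77.9%) lay before the ATG, by a median over all members of -263 bp, and 109 (25.9%) lay within 100 bp of it.

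**Figure D1:**
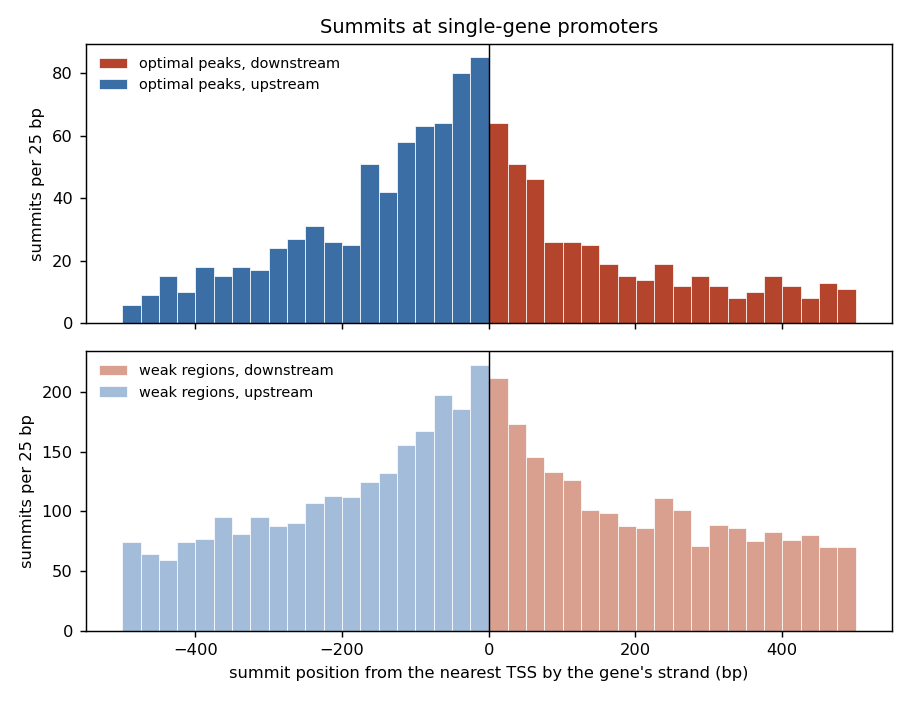
Number of summits per 25 bp, against the distance of the summit from the nearest TSS in bp in the gene's direction; the upper panel holds the 421 downstream and 684 upstream optimal peaks, the lower panel the weak regions of the pooled list (2076 downstream, 2316 upstream). Summits of both panels are densest near the TSS, and 187 of the 421 downstream peaks lie within 100 bp.

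The limits of the rule cut through a continuous distribution. Just inside at the TSS were CG12236, CG34404 and CG8907, each with its summit at 1 bp, and just outside were CG10435 at 0 bp, yrt at -1 bp and Polr1B at -1 bp. At the far limit ACC lay at 496 bp, Myo10A at 498 bp and M6 at 500 bp, whereas rdgA at 506 bp, cdi at 508 bp and sim at 509 bp fell outside. The lowest signal inside was 109, at Hakai, Sugb and CG12236, and the highest outside was also 109 after rounding, at yrt, CG2258 and RNASEK. The signal is the authors' own value per peak, of unstated scale, and is used here only to order peaks within a list.

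Downstream and upstream peaks covered overlapping ranges of signal. The signal had quartiles of 130, 170 and 240 at downstream peaks, with a range of 109 to 1045, and of 129, 159 and 221 at upstream peaks, with a range of 109 to 1355. Since signal chose the peaks, these values were not tested. Nearly every member was found in each replicate's list of 29295 to 30000 regions, with a region within 200 bp of 420, 416 and 421 members in replicates 1, 2 and 3. A replicate's top list is taken here as its strongest regions, as many as there are optimal peaks. It held 349 members (82.9%) for replicate 1, 319 (75.8%) for replicate 2 and 383 (91%) for replicate 3, a mean of 83.2% ± 7.61 (SD, n = 3). All 3 replicates placed 251 members (59.6%) in their top lists, against 380 upstream peaks (55.6%). These are the replicates from which the authors chose the optimal set, so the overlap describes the set and does not test it.

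Replicate 3 stood apart. When the top list of each replicate was sorted by the same rule, downstream single-gene regions numbered 391, 399 and 584 in replicates 1, 2 and 3, against 721, 693 and 582 upstream ones. The downstream share was thus 14.0% ± 3.33 of the top regions and the upstream share 20.3% ± 2.24 (SD, n = 3 each). Upstream outnumbered downstream regions in replicates 1 and 2, and in replicate 3 the 2 counts were nearly equal.

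The strongest downstream peak lay at alc, the beta subunit of the energy sensor AMPK, with the summit 14 bp into the 5′ UTR. It ranked 3rd of all optimal peaks by its signal of 1045, and 3, 6 and 3 in replicates 1, 2 and 3. The next lay at ACC, a substrate of AMPK that makes the malonyl-CoA used to build fatty acids, with a signal of 1035, ranks of 4, 4 and 2, and a summit 496 bp into the gene, in an intron. The alc peak held the palindrome, and the ACC peak held CCAATAGG and a CA repeat.

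Below these came Pkc98E with a signal of 730, ranking 18, 12 and 58 in replicates 1, 2 and 3, CG12384 with 719, ranking 28, 24 and 19, and spg with 693, ranking 29, 30 and 21. Socs16D had a signal of 675 and ranks of 68, 20 and 16. The signal at bbc, the choline/ethanolamine phosphotransferase of membrane lipid synthesis, was 673, with ranks of 37, 54 and 20. Meltrin had 592, with ranks of 49, 57 and 51, and r-l 556, with ranks of 64, 84 and 53. EMC7, a subunit of the ER membrane complex, had 554, with ranks of 51, 90 and 61. These 10 peaks ranked within the first 90 regions of every replicate's list.

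The other 5 of the 15 strongest members were bbg (536), a PDZ-domain protein, Mhcl (510), CG14229 (510), P5CDh1 (503) and HSPC300 (498), a subunit of the SCAR/WAVE actin regulator. Replicates differed most at Mhcl, where replicate 2 ranked the region 260 and replicates 1 and 3 ranked it 63 and 45. Of these 15 peaks, ACC and Mhcl had an intronic summit and the other 13 had their summit in a 5′ UTR. The palindrome, the ELBA site or CCAATAGG lay under alc, ACC, Pkc98E, spg, Socs16D, Meltrin, r-l, CG14229 and P5CDh1, and none of the 3 under CG12384, bbc, EMC7, bbg, Mhcl and HSPC300.

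**Figure D2:**
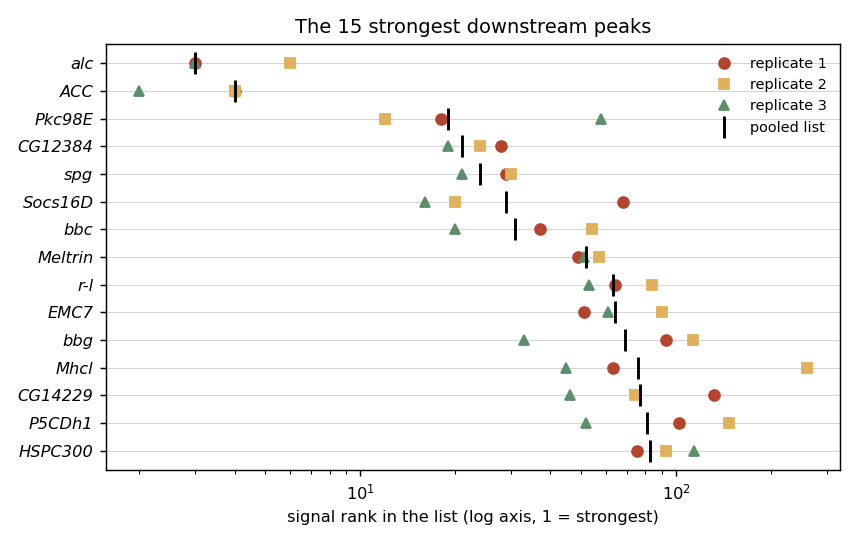
Signal rank (log axis, 1 is the strongest region of a list) of the 15 strongest downstream peaks, ordered from the top by pooled signal; points are the 3 replicates' lists and bars the pooled list. The alc and ACC peaks rank 6 or better in every list, and Mhcl has the widest spread, with ranks of 63, 260 and 45 in replicates 1, 2 and 3.

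The palindrome and CCAATAGG lay near the summits of downstream peaks more often than near those of upstream peaks. The palindrome lay within 100 bp of the summit in 57 of 421 downstream peaks (13.5%, interval 10.4 to 17.2%), against 52 of 684 upstream peaks (7.6%, 5.73 to 9.85%), an odds ratio of 1.9 (two-sided Fisher's exact test, adjusted p = 0.00929). Adjusted p-values are Benjamini-Hochberg values over the 16 words scanned, of which 4 (25%) differed at an adjusted p under 0.05. CCAATAGG lay near 23 downstream summits (5.46%) and 16 upstream summits (2.34%), an odds ratio of 2.41 (adjusted exact p = 0.0432). This word was picked from an earlier scan of these data. The ELBA site itself lay near 27 downstream summits (6.41%, 4.27 to 9.19%) and 36 upstream summits (5.26%, 3.71 to 7.21%), a difference that did not pass the test (odds ratio 1.23, adjusted exact p = 0.681). Any of the 3 words lay near 102 downstream summits (24.2%) and 101 upstream summits (14.8%).

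The direction for the palindrome was the same in each replicate. In the replicates' own top lists it lay near 12.8, 13.5 and 11.1% of downstream summits, a mean of 12.5% ± 1.23, against 6.66, 6.93 and 7.39% of upstream summits, a mean of 6.99% ± 0.37 (SD, n = 3 each). No downstream value overlapped an upstream one. The test treats peaks as independent although 25 genes carry a pair of members, and it takes no account of replicates. With downstream and upstream shares paired within a replicate, the difference was 5.49 ± 1.54 percentage points (SD, n = 3), higher downstream in 3 of 3 replicates (exact sign-flip test, two-sided, p = 0.25, the smallest that 3 pairs can give). Without replicate 2 the adjusted exact p from Fisher's test was 0.0566, at an odds ratio of 1.82. Among weak regions the palindrome lay near 1.88% of downstream and 1.04% of upstream summits, an odds ratio of 1.83 that was not called (adjusted exact p = 0.0582). Whether the ratios of peaks and weak regions differ was not tested.

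The call of CCAATAGG was lost in 5 of 12 alternatives, ranges of distance apart, and its direction did not turn in any of the 12. These were without replicate 2 (odds ratio 1.7, adjusted exact p = 0.4), without replicate 3 (2.15, adjusted exact p = 0.163), among the stronger optimal peaks, those above the middle rank (2.02, adjusted exact p = 0.268), among peaks in the top lists of all replicates (2.05, adjusted exact p = 0.185) and with summits at least 50 bp from the TSS (2.1, adjusted exact p = 0.136).

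Taken by distance, the palindrome passed the test in the middle range. Between 101 and 250 bp the palindrome lay near 23 of 118 downstream summits (19.5%) and 11 of 233 upstream summits (4.72%), an odds ratio of 4.89 (adjusted exact p = 2.29e-04). It was not called within 100 bp of the TSS, with 9.09% of downstream and 7.22% of upstream peaks (adjusted exact p = 1), nor between 251 and 500 bp, with 14.7% and 12.6% (adjusted exact p = 0.961). Whether the ranges differ from each other was not tested.

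A pair of words with a simple composition also differed. The CA repeat lay near 53 downstream summits (12.6%, 9.57 to 16.1%) and 33 upstream summits (4.82%, 3.34 to 6.71%), an odds ratio of 2.84 (adjusted exact p = 7.68e-05). Its share in the replicates was 12.5, 11.3 and 12.5% downstream, against 4.85, 4.47 and 6.53% upstream. By distance, in the first 100 bp 4.81% of both downstream and upstream peaks had it, whereas between 251 and 500 bp 21.6% of downstream and 3.77% of upstream peaks did, and with the promoter limit set at 250 bp it was not called (odds ratio 1.57, adjusted exact p = 0.329). The word TATAAA, here counted anywhere near the summit and on both strands, lay near 58 downstream summits (13.8%) and 168 upstream summits (24.6%), an odds ratio of 0.491 (adjusted exact p = 1.24e-04). It was likewise rarer downstream among weak regions, at 17% against 28.9%, and the median GC content around the summit was 44.3% at downstream and 38.8% at upstream peaks. The part of base composition in these differences was not tested.

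The remaining words were not called between downstream and upstream peaks. The M1BP word lay near 8.31% of downstream and 10.2% of upstream summits (odds ratio 0.795, adjusted exact p = 0.681), and the DRE word near 4.99% and 7.75% (odds ratio 0.625, adjusted exact p = 0.265). The motif 6 word GTATNTTT (9.74% and 11.3%), the motif 7 word CATCNCTA (3.8% and 4.53%) and the E-box CAGCTG (14.5% and 13.9%), further elements of housekeeping promoters, were not called either. The same held for GAGAGAGA, the repeat bound by GAGA factor (2.61% and 3.8%), the CTCF core GGNGGCGC (2.61% and 2.19%), the Zelda site CAGGTAG (2.14% and 1.61%) and the Su(Hw) word TGCATACT (0.238% and 0.731%). For the DRE word the difference paired within replicates was -4.07 ± 0.707 percentage points (SD, n = 3). Among weak regions it lay near 2.6% of downstream and 6.22% of upstream summits (odds ratio 0.403, adjusted exact p = 4.49e-08). The motif 6 word (6.55% and 11%) and the GAGA repeat (1.59% and 4.06%) were also called there, and the other words of this paragraph were not. Of the control words, the ELBA site read backwards, GAATAACC, lay near 0.713% of downstream and 0.146% of upstream summits, and the unrelated palindrome CACTAGTG near 0.238% and 0.585%.

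**Figure D3:**
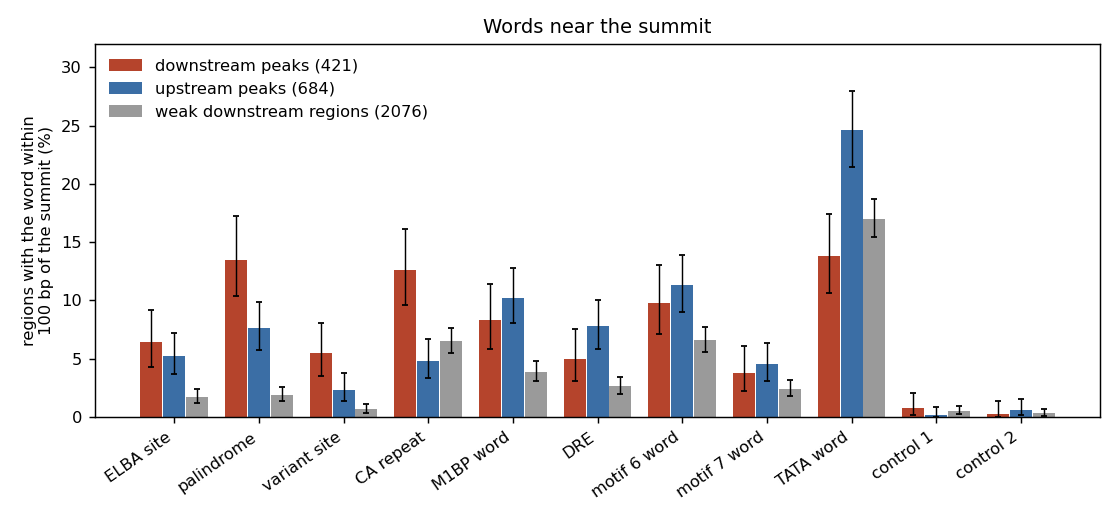
Share of regions (%) with a word within 100 bp of the summit, for 421 downstream peaks, 684 upstream peaks and 2076 weak downstream regions; error bars are exact 95% intervals, variant site stands for CCAATAGG, and controls 1 and 2 are the reversed ELBA site and the unrelated palindrome. The palindrome stands at 13.5% of downstream peaks, 7.6% of upstream peaks and 1.88% of weak regions.

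Against weak regions at the same kind of position, the downstream peaks more often held the CCAAT words. Near summits of downstream peaks and of weak downstream regions, the palindrome had shares of 13.5% and 1.88% (39 of 2076), an odds ratio of 8.18 (adjusted exact p = 1.16e-20). The ELBA site had 6.41% and 1.73% (odds ratio 3.88, adjusted exact p = 4.13e-06). CCAATAGG had 5.46% and 0.626% (odds ratio 9.17, adjusted exact p = 2.08e-09). Without replicates 1, 2 and 3 in turn its odds ratios were 14.4, 7.88 and 10.2, against the same 2076 weak regions. As CCAATAGG was picked from an earlier scan of these data, its p-value is no independent support. Of the 16 words, 6 (37.5%) differed, CCAATAGG among them. The palindrome stood higher in the peaks at every distance: 9.09% against 0.753% of weak regions within 100 bp, 19.5% against 1.47% from 101 to 250 bp, and 14.7% against 3.12% from 251 to 500 bp.

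The other called words were the CA repeat (12.6% of downstream peaks and 6.5% of weak regions, odds ratio 2.07, adjusted exact p = 2.57e-04), the M1BP word (8.31% and 3.85%, odds ratio 2.26, adjusted exact p = 9.08e-04) and the DRE word (4.99% and 2.6%, odds ratio 1.97, adjusted exact p = 0.0325). The DRE call was lost in 11 of 13 alternatives, among them without each replicate in turn, at odds ratios of 1.43, 1.6 and 1.32, and in 1 further alternative, a window of 50 bp, the ratio was 0.67 and not called. The CA repeat had the same share in both sets within 100 bp of the TSS, 4.81% and 4.82%. For the M1BP word the call was lost when the summits within 50 bp of the TSS were left out (4.89% and 2.3%, adjusted exact p = 0.0617).

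Counts of words are given next for the strongest and the weakest downstream peaks. Among the 105 strongest members, with signals of 240 to 1045, 25 (23.8%) held the palindrome and 13 (12.4%) held CCAATAGG. Among the 105 weakest, with signals of 109 to 129, 6 (5.71%) and 5 (4.76%) did. The ELBA site (9 and 6 members), the M1BP word (11 and 10) and the DRE word (7 and 7) are given in the same order. Signal selected the members, so these counts were not tested. Over all members, 235 (55.8%) had neither a CCAAT word nor a housekeeping word near the summit, among them CG12384, EMC7 and CycE, and 14 had both kinds. The housekeeping words counted here are M1BP, DRE, motif 6 and motif 7.

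The CCAAT words lay close to the summit itself, and the housekeeping words close to the TSS. The median distance from the nearest copy to the summit was 18.5 bp for CCAATAGG, 22.5 bp for the palindrome, 31.5 bp for the ELBA site, 36.5 bp for the M1BP word, 43.5 bp for the CA repeat and 64.5 bp for the DRE word. Within 50 bp of the summit lay 22 of 23 copies of CCAATAGG, 44 of 57 of the palindrome and 4 of 21 of the DRE word. The palindrome lay on the 3′ side of the summit, farther into the gene, in 40 of 57 downstream peaks and in 22 of 52 upstream peaks. All 21 DRE copies lay on the 5′ side of a downstream summit.

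Measured from the TSS, the median position was +134 bp for CCAATAGG, +202 bp for the ELBA site, +212 bp for the palindrome and +240 bp for the CA repeat, which follow the summits. The median position of the M1BP word was +13.5 bp and that of the DRE word -37.5 bp. The members with these words had their summits near the TSS, at a median of 37 bp with the M1BP word and 47 bp with the DRE word, compared with 168 bp with the palindrome, 214 bp with the ELBA site and 246 bp with the CA repeat. As the summit position was used to choose the members, these distances are a description.

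**Figure D4:**
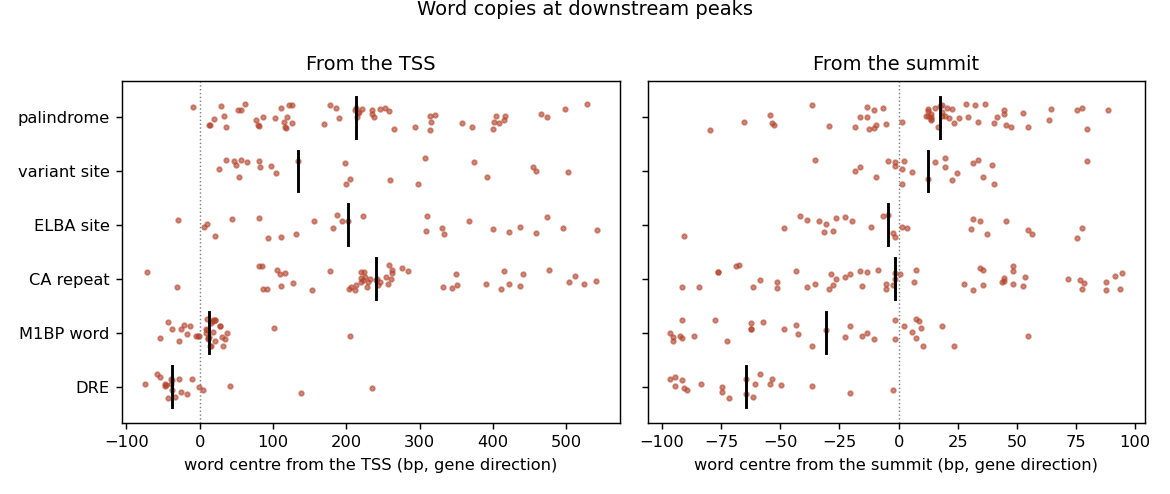
Position of the nearest copy of 6 words at downstream peaks, from the TSS (left) and from the summit (right), in bp in the gene's direction; each dot is 1 peak and bars are medians, and variant site stands for CCAATAGG. Copies of the CCAAT words gather near the summit and are spread along the gene start, whereas M1BP and DRE copies gather near the TSS, with medians of 13.5 and -37.5 bp.

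More copies of the palindrome met the position rule downstream than upstream of TSSs, and they were not detectably more often under a peak. Every copy of a word in the genome was sorted by the same position rule, and a copy counted as under a summit when an optimal summit lay within 100 bp. Downstream and upstream here describe the copy, and the summit need not be that of a member peak. The rule removes upstream copies at closely spaced divergent genes more readily than downstream ones. The numbers of copies are those that the rule left. Downstream of single-gene TSSs lay 249 palindromes, of which 62 (24.9%, 19.7 to 30.8%) were under a summit, and upstream lay 166, of which 51 (30.7%, 23.8 to 38.3%) were (two-sided Fisher's exact test, odds ratio 0.748, adjusted p = 0.526). The ELBA site had 27 of 198 copies under a summit downstream (13.6%) and 40 of 208 upstream (19.2%), and CCAATAGG had 22 of 110 (20%) and 17 of 75 (22.7%), both also not called. Of the 12 words compared in this way, 1 (8.33%) differed, the CTCF core, with 1.07% of 1029 downstream copies and 4.3% of 488 upstream copies under a summit. The reversed ELBA site, as a control, had 2 of 126 copies under a summit downstream and 1 of 122 upstream.

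Downstream, the bases beside the palindrome differed between copies under a summit and the others. A T before and an A after the word stood beside 26 of the 62 downstream palindromes under a summit (41.9%), against 25 of the 187 that were not (13.4%), an odds ratio of 4.68 (two-sided Fisher's exact test, adjusted p = 5.51e-05). The sites of Pkc98E and spg printed above have both bases. Upstream, 10 of 51 palindromes under a summit (19.6%) and 25 of 115 others (21.7%) had them (adjusted exact p = 0.943). Exactly 1 of these bases stood beside 20 of the 62 downstream palindromes under a summit (32.3%) and 76 of the 187 others (40.6%), and upstream beside 30 of 51 under a summit (58.8%) and 37 of 115 others (32.2%). Neither base was present at 16 and 86 copies downstream, and at 11 and 53 upstream. Among palindromes under a summit, the share was higher downstream than upstream, 41.9% against 19.6% (odds ratio 2.96, adjusted exact p = 0.0341). Base by base, a T came before 54.8% of these downstream and 51% of these upstream, and an A came after 61.3% and 47.1%. The counts with 1 base or neither were not tested.

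The other 2 words showed the same bases downstream. Of downstream ELBA sites, they flanked 9 of 27 under a summit (33.3%) and 15 of 171 others (8.77%), an odds ratio of 5.2 (adjusted exact p = 0.00646). Of downstream copies of CCAATAGG, they flanked 5 of 22 under a summit (22.7%) and 4 of 88 others (4.55%), an odds ratio of 6.18 (adjusted exact p = 0.0341). Upstream the ELBA site had 17.5% and 8.33% and CCAATAGG 17.6% and 3.45%, neither of which passed the test. Of the 9 tests of flanking bases, 4 (44.4%) were called; the comparison was added after the data had been seen, and a call on one side alone does not show that the sides differ for these 2 words.

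The CA repeat ran mostly in one orientation at downstream peaks. With the copy nearest to the summit, CACACACA stood on the coding strand in 10 of 53 downstream peaks (18.9%) and in 16 of 33 upstream peaks (48.5%), an odds ratio of 0.247 (two-sided Fisher's exact test, adjusted p = 0.0287). The same lean was present without regard to peaks, since 30.6% of all 4664 downstream copies and 47.7% of all 3147 upstream copies had CACACACA on the coding strand. These copies lay at 1563 and 1046 genes. Overlapping matches in a long repeat were each counted, unlike the single copy taken per peak. The M1BP word stood on the coding strand in 30 of 35 downstream peaks (85.7%) and 47 of 70 upstream peaks (67.1%, adjusted exact p = 0.121). Of the 4 words tested for orientation, 1 (25%) differed.

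Core promoter elements at the TSS were compared in windows fixed on the TSS, over 380 TSSs with a downstream peak and 642 with an upstream peak, after leaving out 22 with both. The M1BP word, in the window from -100 to 50 bp, was found at 63 TSSs with a downstream peak (16.6%) and 66 with an upstream peak (10.3%), an odds ratio of 1.73, and at 6.59% of all coding genes. The motif 7 word was found at 8.42% and 4.05% (odds ratio 2.18), against 4.94% of all genes. The initiator TCAGT, the element at the start site of many regulated genes, was found between -6 and 4 bp at 6.84% and 12.6% (odds ratio 0.509), against 11.1% of all genes. Each of these had an adjusted p of 0.0193 (two-sided Fisher's exact test), and 3 of the 12 elements (25%) were called.

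None of these 3 elements was called when any one of the replicates was left out, and none changed direction. For the M1BP word the shares without replicate 2 were 14.6% and 13.5%, an odds ratio of 1.1. The DRE word (12.4% with a downstream and 8.88% with an upstream peak), motif 6 (11.1% and 7.94%), the E-box (13.7% and 15%), the TATA box in its usual window (1.32% and 2.8%, against 7.95% of all genes), the downstream promoter element (8.68% and 9.66%), the TCT initiator of ribosomal protein genes (2.11% and 2.34%) and the GAGA repeat (1.58% and 2.96%) were not called. The ELBA site and the palindrome each lay in this window at 2.11% of TSSs with a downstream peak, against 2.02% and 2.49% of those with an upstream peak and 0.53% of all genes.

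Most downstream summits lay in 5′ UTRs. Where transcripts of the gene disagreed, 5′ UTR was taken before coding exon, and coding exon before intron, for peaks and weak regions alike. The 5′ UTR held 286 summits (67.9%, 63.2 to 72.4%), compared with 50.3% of weak downstream regions, an odds ratio of 2.09 (two-sided Fisher's exact test, adjusted p = 6.78e-11). Coding exons held 48 (11.4%, 8.53 to 14.8%), compared with 29.3% of weak regions, an odds ratio of 0.31 (adjusted exact p = 1.96e-15). Introns held 84 (20%), compared with 19.6% (adjusted exact p = 1), and 3 members fell in none of these. Of the 4 classes, 2 (50%) differed. The replicates' own top regions gave 71.4, 62.7 and 64.2% in 5′ UTRs (mean 66.1% ± 4.64) and 6.39, 13.3 and 14.6% in coding exons (mean 11.4% ± 4.39, SD, n = 3). The coding-exon share was 12% without replicate 1 (odds ratio 0.328 against weak regions), 6.31% without replicate 2 (0.162) and 5.66% without replicate 3 (0.145), each called.

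Weak regions lay farther from the TSS, so the classes are also given within ranges of distance, added after the data had been seen. Distances within a range were not matched, and the part of distance in the difference was not tested. Within 100 bp the 5′ UTR held 94.1% of downstream peaks and 88.1% of weak regions (adjusted exact p = 0.032). From 101 to 250 bp it held 61% and 45.2% (adjusted exact p = 0.00532), and coding exons 21.2% and 34.5% (adjusted exact p = 0.0113). From 251 to 500 bp, coding exons held 13.8% of peaks and 42.2% of weak regions (odds ratio 0.219, adjusted exact p = 6.67e-09) and introns 50.9% and 33% (odds ratio 2.11, adjusted exact p = 0.00112).

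**Figure D5:**
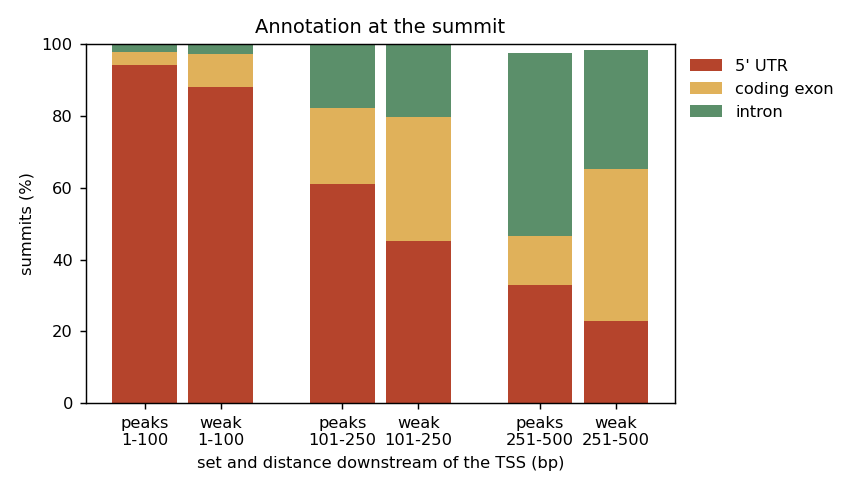
Share of summits (%) in 5′ UTRs, coding exons and introns, for downstream peaks (left bar of each pair) and weak downstream regions (right bar), in 3 ranges of the distance from the TSS in bp; the small rest up to 100% lies in none of the classes. From 251 to 500 bp, coding exons hold 13.8% of peaks and 42.2% of weak regions.

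The words held in each class were not tested between classes, whose distances from the TSS differ. Of the 286 members in 5′ UTRs, whose median distance from the TSS was 65.5 bp, 11.5% had the palindrome and 11.9% the M1BP word. Of the 48 in coding exons, at a median of 177 bp, 11 (22.9%) had the palindrome and 1 had a CA repeat. Of the 84 in introns, at a median of 317 bp, 12 (14.3%) had the palindrome, 20 (23.8%) had a CA repeat and none had the M1BP word.

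Among coding-exon members the strongest was crok, with a signal of 416, ranks of 315, 104 and 138 in replicates 1, 2 and 3, and the M1BP word. Cat, which encodes catalase, had 392, ranks of 220, 176 and 221, and a CA repeat. Ets97D, the fly counterpart of the GABP alpha ETS factor, had 383, ranks of 221, 271 and 228, and the palindrome. CG33919 (344), with an ELBA site, and Acat1 (331), a mitochondrial acetyl-CoA acetyltransferase with the palindrome, followed. All 5 of these ranked below the strongest intronic members, which after ACC and Mhcl were gek (486), a kinase of the MRCK family, with CCAATAGG, MESK2 (483), with the palindrome, and CycE (448), the G1/S cyclin, with none of the CCAAT words. The summit of the CycE peak lay 435 bp from the TSS and ranked 164, 152 and 102 in replicates 1, 2 and 3.

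The strongest members with a DRE word were HSPC300, CG9175 (485), GstZ1 (409), robo1 (365), the Slit receptor of axon guidance, and aru (336). With an M1BP word they were bbc, crok, CG12024 (403), CG5850 (382) and Ypel (333), a Yippee-like protein. The CG5850 peak also held CCAATAGG, and the Ypel peak also held the palindrome, a Zelda site and a CA repeat. With the ELBA site they were Pkc98E, r-l, P5CDh1, kst (378) and CG33919.

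Downstream and upstream peaks were compared by 8 yes-or-no properties of the gene or its surroundings, of which 4 (50%) differed. Peaks were counted and not genes, so the 25 genes with a pair of members were counted more than once. A further limit is that 53 genes stood on both sides. A first exon shorter than 500 bp followed by an intron was present for 322 downstream peaks (76.5%) and 469 upstream peaks (68.6%), an odds ratio of 1.49 (two-sided Fisher's exact test, adjusted p = 0.0097), and in the replicates for 76.5, 79.2 and 76.2% of downstream regions against 70.3, 70.4 and 68.6% of upstream regions. With a promoter limit of 250 bp it was not called (odds ratio 1.23). The X chromosome held 83 downstream peaks (19.7%) and 109 upstream peaks (15.9%), which did not pass the test (adjusted exact p = 0.192). Neither did gene length above the median (78.9% and 76.2%), more than 1 annotated TSS (54.2% and 51.5%) or a noncoding TSS within 500 bp (4.28% and 5.85%).

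A further 2 called properties depend on the rule that made the sets. A coding gene edge within 1000 bp upstream of the TSS was present for 67.7% of downstream and 45.8% of upstream peaks, and a divergent upstream neighbour for 53.4% and 42.8%. The requirement of exactly 1 coding gene with a TSS within 500 bp of the summit removes upstream peaks at closely spaced divergent genes more readily than downstream ones, so nothing is read from these. By kind of edge, the start of a divergent gene lay there for 30.2% of downstream and 10.2% of upstream peaks. The 3′ end of a gene on the same strand did so for 38.2% and 35.7% (two-sided Fisher's exact test, p = 0.404). The single-gene rule also shapes the set of upstream peaks behind this share, so nothing is read from it either.

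Downstream peaks more often had company. Another optimal summit lay within 2000 bp of 169 downstream peaks (40.1%) and 192 upstream peaks (28.1%), an odds ratio of 1.72 (two-sided Fisher's exact test, adjusted p = 1.64e-04). The single-gene rule left a divergent gene start within 1000 bp upstream at 30.2% of downstream and 10.2% of upstream peaks. Its part in this difference was not tested. The replicates did not carry this evenly, with 41.7, 41.1 and 34.1% of downstream against 27.6, 27.8 and 34.2% of upstream regions, and the call was lost without replicate 1 (odds ratio 1.16, adjusted exact p = 0.52), among the stronger optimal peaks alone (1.35, adjusted exact p = 0.184) and those in the top lists of all replicates (1.43, adjusted exact p = 0.107). Of the 169 nearest neighbours, 85 belonged to the same gene. In 52 cases the neighbour was another downstream peak, in 53 an upstream peak, in 30 a peak shared by several genes and in 34 a peak away from coding TSSs. It lay on the 5′ side of 104 downstream peaks (61.5%), against 100 of 192 upstream peaks (52.1%). Within 500 bp, another summit lay near 80 downstream peaks (19%) and 78 upstream peaks (11.4%). Whether summits this close are separate binding sites was not tested.

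Each of 25 genes had a pair of downstream members. The strongest pairs lay at Pkc98E (signals of 730 at 192 bp and 323 at 396 bp), spg (693 at 175 bp and 213 at 376 bp), Meltrin (592 at 237 bp and 163 at 15 bp), Mhcl (510 at 268 bp and 170 at 61 bp), Nrt (412 at 150 bp and 263 at 355 bp) and gek (486 at 435 bp and 158 at 232 bp). Each of the spg summits had a palindrome within 100 bp. Both an upstream and a downstream peak were present at 53 genes. These distances run from the nearest annotated TSS of the gene, which need not be the same TSS for both members of a pair. In each pair named here the summits lay little more than 200 bp apart, and chromatin had been sonicated to 200 to 800 bp. Whether the members of a pair are separate binding sites was not tested.

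In lists of genes by function, the counts were small and are given beside the 2.84% of all coding genes with a downstream peak. The lists were chosen with earlier results of these data known and no list was tested. Among chromatin regulators, 3 of 32 Polycomb and Trithorax group genes had one: ph-p (signal 334, 407 bp from the TSS), Su(z)2 (200) and Psc (112), of which ph-p and Psc encode subunits of a Polycomb repressive complex and Su(z)2 is a relative of Psc. Among insulator proteins, 2 of 19 did, Trl (118), which encodes GAGA factor, and Cp190 (115), a cofactor shared by insulators. The general transcription machinery gave 1 of 33, Polr2I (119), a subunit of RNA polymerase II, and Mediator 2 of 29, MED14 (141) and kto (123). The Su(z)2 region ranked 697, 26045 and 657 in replicates 1, 2 and 3. Of the 34 genes named from the lists, 13 had a peak outside the top list of at least 1 replicate, Su(z)2, Psc, Trl, Cp190, Polr2I, MED14 and kto among them, and 21 had a peak in all 3 top lists.

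Housekeeping lists also gave small counts. Cytosolic ribosomal proteins gave 3 of 86 (RpL9 at 319, RpL8 at 267 and RpL26 at 206), mitochondrial ribosomal proteins 1 of 73 (mRpS24), translation factors 1 of 52 (eIF5), aminoacyl-tRNA synthetases 0 of 17 and respiratory chain subunits 2 of 65 (ND-49 and ND-13A, both of complex I). The proteasome gave 3 of 37 (Prosalpha2 at 208, Prosalpha5 at 195 and Rpt1 at 152), heat shock proteins 3 of 25 (Hsp110 at 248, Hsp83 at 196 and Hsp60A at 118) and Rab GTPases 1 of 36 (Rab18).

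Lists of developmental regulators held 0 to 3 genes with a downstream peak each. In the gap and pair-rule list it was 1 of 22 (4.55%), bowl (323), an Odd-skipped family zinc-finger gene, and in the dorsoventral and BMP list 2 of 31 (6.45%), cact (167), the fly IkB, and Mad (129), a Smad. In the Hox complexes it was 1 of 11 (9.09%), lab (131). In the Notch pathway they were 2 of 16 (12.5%), H (162), which encodes the co-repressor Hairless, and Su(H) (142), the DNA-binding factor of the pathway. In the cell cycle list they were 3 of 33 (9.09%), CycE (448), CycD (231) and aurA (184), in the forkhead list 2 of 15 (13.3%), FoxK (162) and CHES-1-like (150), and in the neuroblast list 1 of 23 (4.35%), nub (150). The peaks of Mad, lab, H, Su(H) and nub were outside the top list of at least 1 replicate.

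Upstream peaks were present at 653 of all coding genes (4.67%). Lists with upstream peaks alone had 0 downstream and 7 upstream of 27 genes for segment polarity, Wnt and Hedgehog signalling, 0 and 4 of 11 for the E(spl) complex, and 0 and 3 of 19 for cellularisation. Lists with downstream peaks alone were Mediator, with 2 of 29, and the respiratory chain, with 2 of 65. The Hox complexes had 1 downstream and 5 upstream of 11, translation factors 1 and 9 of 52, and cytosolic ribosomal proteins 3 and 10 of 86. Downstream counts were the higher for the proteasome (3 and 2 of 37), heat shock proteins (3 and 1 of 25) and forkhead factors (2 and 1 of 15). The differences between the sides were not tested. None of the 95 cuticle protein genes or the 119 odorant and gustatory receptor genes had either kind of peak.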

How the data were processed

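Elba2-eGFP ChIP-seq peak lists of 3 biological replicates, 1 group, were used on dm6; the lists on dm3 were not used. The authors called peaks and background against a control in each replicate and in the pooled replicates, and took an optimal set by the irreproducible discovery rate (IDR), per the labels and the notes deposited with the files; aligner, caller and the signal's scale are not stated there. Lists held 29295, 30000 and 30000 regions in replicates 1 to 3 and 28496 in the pooled list, and the optimal peaks were the strongest regions of that list. The deposited signal was used to order regions within a list, never between lists. The summit is the region start plus the deposited offset. TSSs, exons and start codons came from Ensembl release 115 (FlyBase 6.54) and bases from the NCBI Release 6 genome.

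Differences in share were tested with Fisher's exact test, two-sided (scipy 1.17.1, Python 3.11.15) with Benjamini-Hochberg adjustment within each family and a threshold of 0.05. Peaks were taken as independent, so p-values measure counting error between peak sets and not the spread between replicates. The same shares were computed in each replicate's top list, as many regions as the optimal set holds. Replicates were left out by keeping regions that the top lists of both others shared within 200 bp. The weak regions were not changed in these alternatives and still came from the pooled list of all 3 replicates. Word scanning and classification were tested on simulated data. Named genes were the 15 strongest members, the 5 strongest in each annotation class and with each of 4 words, those nearest each limit, up to 4 per gene list and pairs at 1 gene. The members, words and lists were chosen with earlier results of these data known. No sequence is printed for some strong members.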

Additional observations from a re-analysis of the deposited data

How the results depend on the processing

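Over 21 results, 275 alternatives were computed; 200 kept direction and side of the threshold, 64 kept the direction but were not called and 11 turned direction. The number of words that differ between downstream and upstream peaks was 4, and 2 to 5 when a replicate was left out, lowest without replicate 2. Of the elements at the TSS, 3 were called, but 1 among the stronger optimal peaks (those above the middle rank), 0 among peaks in the top lists of all replicates, 0 without each replicate in turn, 1 with canonical transcripts, 0 with a limit of 250 bp and 0 with 1000 bp; no alternative turned their direction. Of the gene properties 4 were called, and 2 with a limit of 250 bp. Against weak downstream regions the odds ratio turned for the DRE word with a window of 50 bp (0.67), for the M1BP word between 251 and 500 bp (0, with no member holding it) and for the CA repeat within 100 bp (0.999); the ranges of distance were added after seeing the data, and the DRE word gave no ratio from 251 to 500 bp because no weak region there held it. The ELBA site between downstream and upstream peaks, which was not called (odds ratio 1.23), turned to 0.907 among the stronger peaks and 0.824 among those in all top lists, and ran from 0.945 (without replicate 2) to 1.03 without each replicate; at the TSS (1.04) it turned to 0.834, 0.784 and, at least 50 bp away, 0.432, and ran from 0.464 (without replicate 2) to 1.02, with 0.586 without replicate 3. The cause was not tested. Outside the ranges of distance, calls held in every alternative for the TATA word against upstream peaks and for the called annotation classes. The same held against weak regions for the palindrome, CCAATAGG and the ELBA site. Without replicate 2 the call of the palindrome against upstream peaks was lost. Pairing the sides within replicates, added after seeing the data, cannot give an exact p below 0.25. Read depth is unknown; the number of peaks and the spread between replicates limit precision, the downstream share being 11.9, 12.2 and 17.8% of the top regions.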
